A study of Rattus norvegicus with 9 samples.

Results

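Mitochondrial respiratory chain genes were followed in kidney RNA of 3 inbred rat strains. The members are the probes whose RefSeq identifier maps to a rat gene for a subunit of complexes I to V: symbols that begin with Ndufa, Ndufb, Ndufc, Ndufs or Ndufv plus a digit, Sdha to Sdhd, Uqcr, Cyc1, Cox4 to Cox8, and Atp5. Of the 24684 probes on the array, 76 met this rule, and they stand for 74 genes. Of these, 72 genes (74 probes) had enough signal to be tested, among 10861 tested genes with a current symbol. Complex I gave 31 tested genes, complex II 4, complex III 6, complex IV 16 and complex V 15. Despite its symbol, Ndufa4 was counted with complex IV. Uqcrq of complex III and Cox8c, the testis form of a complex IV subunit, were on the array but did not pass the filter: the Cox8c probe was well above background on 0 arrays and the Uqcrq probe on 1 SHR array. Subunits encoded by mitochondrial DNA are outside the rule, and Cyc1, Ndufs6, Ndufa13 and Atp5mc3 were among the nuclear genes not analysed here.

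The 3 groups were Dahl salt-sensitive rats (Dahl S), which become hypertensive when fed salt, Dahl salt-resistant rats (Dahl R), selected from the same stock to withstand it, and spontaneously hypertensive rats (SHR), which become hypertensive without added salt. Each group had 3 arrays, and no group carried a transgene or received a drug. All animals were males of 53 days that had been weaned at 30 days and then kept on 0.3% salt, so no group had a salt load. Total kidney RNA (1 μg a sample) was labelled with Cy3 and hybridised to single-colour Agilent arrays that carry mRNA and noncoding RNA probes. The labels give a shared day of birth and no litter, and nothing on pooling of RNA, so p-values measure the spread between these samples. In whole tissue, fewer cells of a type and less RNA per cell cannot be told apart.

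The respiratory chain sits in the inner mitochondrial membrane. Complexes I and II take electrons from NADH and succinate, complex III passes them to cytochrome c, complex IV hands them to oxygen, and the proton gradient built on the way drives ATP synthesis by complex V. In the kidney this ATP pays for sodium reabsorption, above all in the proximal tubule and the thick ascending limb, which are mitochondria-rich segments of the nephron.

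Levels are log2 signals relative to the 75th percentile of the array, so 0 stands for that percentile, and they are compared between strains for a probe and never between probes. On 8 arrays, 60.1% to 70.3% of all probes were well above background. SHR replicate 3 stood apart, with 43.1% of probes above background, a median local background of 88 against 43 to 45, and 7.93% of spots marked as outliers by the scanner software against 1.49% to 2.62%. Of the 72 respiratory chain genes, 39 (54.2%) had no usable value on SHR replicate 3, against 14.4% of all tested genes. The probes standing for all 72 genes had a single spot each. Results for these genes rest on 2 SHR arrays, and counts are given with and without SHR replicate 3. Dahl S replicate 1 was also the lowest array for the dim complex IV probes of Cox4i2 and Cox6a2. Arrays that share a scan time in the file header are called a slide here. The 3 Dahl S arrays were with Dahl R replicate 1, and Dahl R replicates 2 and 3 with SHR replicates 1 and 2. SHR replicate 3 was alone. With slide as a block, Dahl S is therefore compared with Dahl R through Dahl R replicate 1 alone. SHR is compared with Dahl R inside the slide they share. Differences by block and within a slide are thus equal by design and are not separate checks. Dahl S is compared with SHR by way of both slides.

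Most respiratory chain genes had nearly the same level in the 3 strains, and a handful, led by Ndufb2 and Ndufa10 of complex I and Cox5a and Cox8b of complex IV, set SHR apart from both Dahl strains. In Dahl S against Dahl R, the comparison of the sensitive line with its resistant counterpart on low salt, 1 of 72 genes (Ndufa10) was higher in Dahl S and 0 were lower at an adjusted p under 0.05 (limma, Benjamini-Hochberg over all tested probes), while 3 had an unadjusted p under 0.05. The share called among all named genes was 1.65% (0.865% higher in Dahl S and 0.783% lower). In Dahl S against SHR, 4 members were higher in Dahl S (Ndufb2, Ndufa10, Cox5a and Cox7a2l) and 2 were lower (Cox8b and Ndufv1), or 8.33% of members, where 15.8% of all named genes were called (7.35% higher and 8.41% lower). In SHR against Dahl R, 1 member was higher in SHR (Cox8b) and 5 were lower (Ndufb2, Ndufa10, Cox5a, Ndufa7 and Cox7a2l), again 8.33%, where 13.6% of all named genes were called (7.84% higher and 5.8% lower). The 2 comparisons with SHR share the SHR arrays, so a gene called in both is not seen independently in each.

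**Figure D1:**
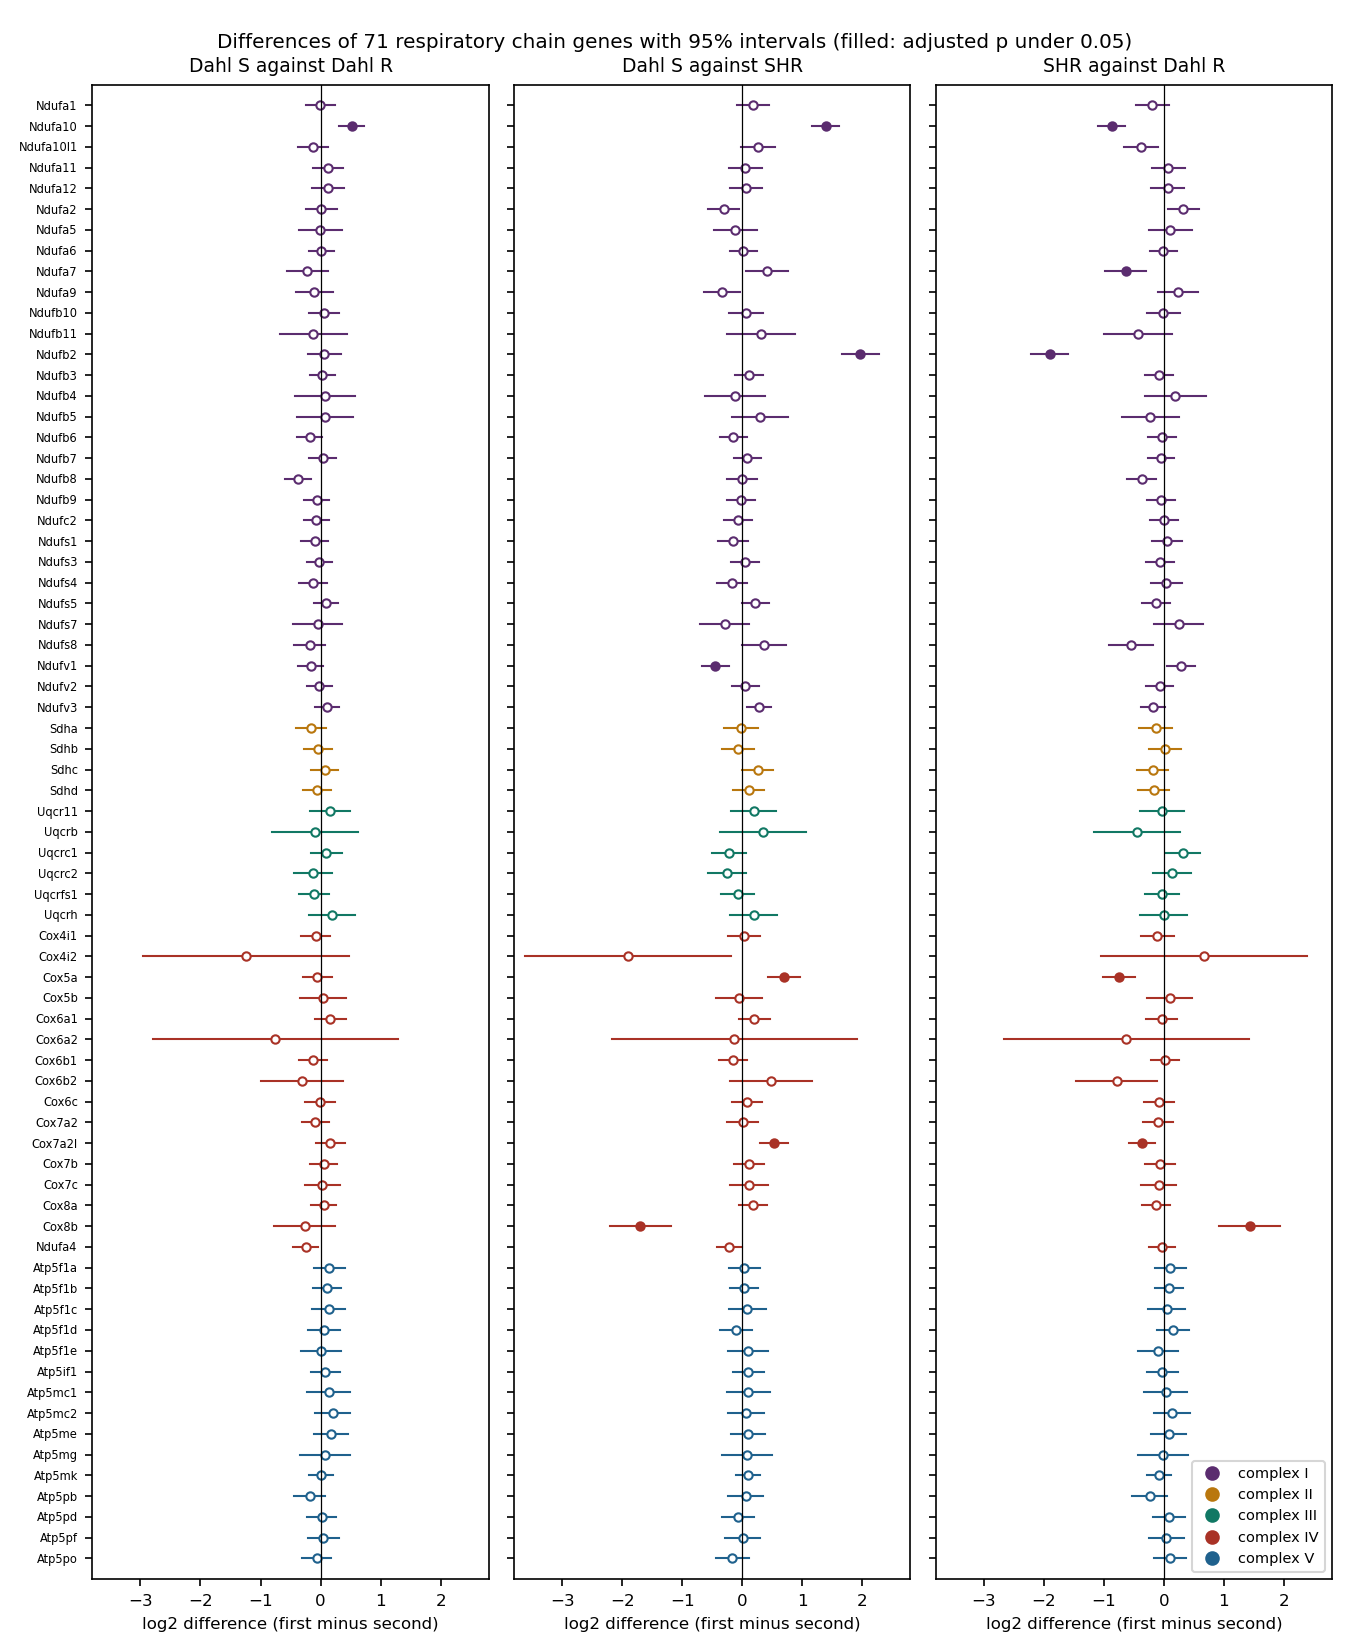
Log2 difference of 71 of the 72 tested respiratory chain genes (x axis; first strain minus second, with 95% intervals from limma), 1 row a gene, coloured by complex. Filled points have an adjusted p under 0.05: 1 gene in Dahl S against Dahl R and 6 in each comparison with SHR, while all 15 complex V genes lie near 0 in every panel.

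The sizes of the differences were small. The median absolute log2 difference of the members was 0.0969 in Dahl S against Dahl R, 0.118 in Dahl S against SHR and 0.103 in SHR against Dahl R, where all named genes had 0.147, 0.283 and 0.272. Most members are bright. Named genes with a mean level above the 75th percentile had 0.109, 0.207 and 0.208, and the 65 members above it had 0.0857, 0.110 and 0.0947. The signed medians of the members were 0.00, 0.05 and -0.03, and those of all named genes 0.03, -0.06 and 0.09. The 95% interval of the difference lay within 1.5-fold in either direction for 64, 55 and 55 of the 72 members, and for 5692, 4157 and 4144 of the 10861 named genes. Above the 75th percentile it did so for 60, 52 and 52 of the 65 members, and for 4361, 3316 and 3310 of 5858 named genes. Member probes were also less variable within a strain, with a median standard deviation (SD) of 0.0994 against 0.205 for all named genes and 0.145 for named genes above the 75th percentile. Strains did not overlap for 15, 28 and 27 members in the 3 comparisons, or 20.8%, 38.9% and 37.5%, where all named genes gave 32.3%, 39.3% and 40.9%. In the comparisons with SHR these shares depend on how many arrays were usable. Members measured on SHR replicate 3 gave 27.3% against Dahl S and 24.2% against Dahl R, and members missing on it 48.7% in each. All named genes missing on it gave 51.6% and 57.5%.

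**Figure D2:**
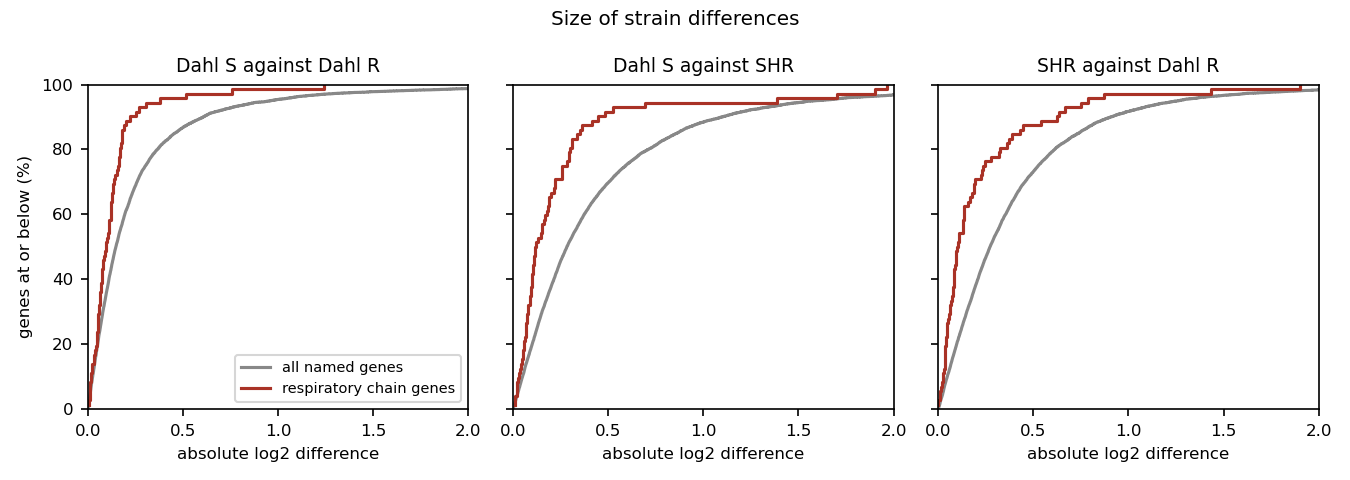
Percentage of genes (y axis) with an absolute log2 difference at or below the value on the x axis, for the 72 respiratory chain genes and all 10861 named genes, in the 3 comparisons. The curve of the respiratory chain genes rises earlier: their medians are 0.0969, 0.118 and 0.103 against 0.147, 0.283 and 0.272. Named genes with a mean level above the 75th percentile, not drawn, have medians of 0.109, 0.207 and 0.208.

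Without SHR replicate 3 more members passed. Dahl S against Dahl R then gave 2 (Ndufa10 higher and Ndufb8 lower in Dahl S; 5.05% of all named genes were called), Dahl S against SHR 8 (5 higher and 3 lower; 25.7% of named genes) and SHR against Dahl R 10 (2 higher and 8 lower; 22.8% of named genes). Among the genes gained in the comparisons with SHR, Ndufv3 was gained against both Dahl strains by the probe that stands for it (its other probe went the opposite way, as given with complex I), and Ndufb8, Ndufa10l1 and Ndufv1 were gained against Dahl R.

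The promoters of the members with large differences are shown beside that of Atp5me, a complex V gene with overlapping strains, chosen because its window holds motif matches and so shows what a match looks like. Known regulators of respiratory chain genes include NRF-1, GABP (also called NRF-2), the estrogen-related receptors (ERR) and YY1. Their motifs were searched on both strands as the exact letters GCGCATGCG, CCGGAAG, TCAAGGTCA and AAGATGGCG, and matches may overlap. The window ran from 250 bases before to 50 bases after the annotated gene start, in RefSeq sequence of the GRCr8 assembly, which is not the sequence of these strains. Sequences run 5′ to 3′ on the gene's strand, and capitals mark motif matches. Ndufb2 lies at chr4:69334057-69334356 (+), Ndufa10 at chr9:100489215-100489514 (-), Cox5a at chr8:66818034-66818333 (+), Cox8b at chr1:205408224-205408523 (-) and Atp5me at chr14:1464610-1464909 (+).
Ndufb2: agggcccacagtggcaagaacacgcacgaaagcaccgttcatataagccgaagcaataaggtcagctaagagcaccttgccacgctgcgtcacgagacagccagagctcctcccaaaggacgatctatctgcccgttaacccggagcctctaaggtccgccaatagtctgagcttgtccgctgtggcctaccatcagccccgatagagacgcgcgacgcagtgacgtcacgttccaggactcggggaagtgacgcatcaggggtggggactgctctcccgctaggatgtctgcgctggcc
Ndufa10: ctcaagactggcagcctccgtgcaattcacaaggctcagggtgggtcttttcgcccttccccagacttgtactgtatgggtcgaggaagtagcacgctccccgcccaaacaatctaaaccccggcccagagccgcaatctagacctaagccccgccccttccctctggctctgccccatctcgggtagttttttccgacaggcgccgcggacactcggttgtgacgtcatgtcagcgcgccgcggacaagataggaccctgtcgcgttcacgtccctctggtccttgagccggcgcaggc
Cox5a: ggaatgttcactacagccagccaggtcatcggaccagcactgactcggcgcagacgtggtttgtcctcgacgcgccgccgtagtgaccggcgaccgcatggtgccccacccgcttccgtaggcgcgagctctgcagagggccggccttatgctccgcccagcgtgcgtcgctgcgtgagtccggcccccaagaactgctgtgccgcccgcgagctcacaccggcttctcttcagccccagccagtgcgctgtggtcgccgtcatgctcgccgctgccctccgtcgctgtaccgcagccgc
Cox8b: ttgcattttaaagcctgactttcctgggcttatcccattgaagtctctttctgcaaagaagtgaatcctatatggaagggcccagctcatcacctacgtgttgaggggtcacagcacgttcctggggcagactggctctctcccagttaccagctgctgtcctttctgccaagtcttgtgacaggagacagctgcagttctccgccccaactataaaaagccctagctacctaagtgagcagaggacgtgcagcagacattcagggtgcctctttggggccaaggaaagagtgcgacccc
Atp5me: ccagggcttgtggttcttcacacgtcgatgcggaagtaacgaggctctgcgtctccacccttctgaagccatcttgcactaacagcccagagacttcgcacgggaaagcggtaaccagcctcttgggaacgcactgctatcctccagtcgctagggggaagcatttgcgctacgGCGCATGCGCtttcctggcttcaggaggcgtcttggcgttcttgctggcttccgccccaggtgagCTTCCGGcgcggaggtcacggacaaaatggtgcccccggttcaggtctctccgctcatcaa
The Atp5me window holds overlapping NRF-1 matches, 1 on each strand, and 1 GABP match on the reverse strand, while the other windows shown hold none of the 4 motifs, and neither do those of Cox7a2l, Ndufa7 and Ndufv1. Of 74 member genes, 65 had a promoter entry. The NRF-1 letters were in 6 of them (9.23%, against 2.03% of 19005 protein-coding promoters), the GABP letters in 20 (30.8% against 11.2%), the ERR letters in 1 (1.54% against 0.353%) and the YY1 letters in 8 (12.3% against 2.29%). In all, 28 of the 65 windows held at least 1 of the 4 and 37 held none. Of the 14 complex V windows, 7 held none, so windows without a match are common among genes that did not differ between strains too. A match is a description of letters and says nothing about binding in these kidneys.

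Complex I, which oxidises NADH and starts proton pumping, held the largest strain difference to pass the test. Ndufb2, an accessory subunit of the membrane arm, had relative log2 levels of 5.91, 5.79 and 5.77 on the Dahl S arrays, 5.73, 5.77 and 5.78 on the Dahl R arrays, and 4.03 and 3.69 on SHR replicates 1 and 2. Both SHR values lay far below all 6 Dahl values, and the marked spot of SHR replicate 3, left out of the fit, read 4.23. The Dahl S mean exceeded that of SHR by 1.96 ± 0.13 on the log2 scale (SE, n = 3 and 2 arrays; 3.90-fold; limma adjusted p = 0.000208), and SHR fell short of Dahl R by 3.73-fold (log2 difference -1.90 ± 0.13, n = 2 and 3, limma adjusted p = 0.000273). Between the Dahl strains the Ndufb2 difference was 0.06 with a 95% interval of -0.21 to 0.34. Within the slide that held SHR replicates 1 and 2 with Dahl R replicates 2 and 3 it was -1.91 for SHR against Dahl R (limma adjusted p = 0.012). With slide as a block the difference was 2.01 against Dahl S (limma adjusted p = 0.00628) and -1.91 against Dahl R (limma adjusted p = 0.00078).

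Ndufa10, an accessory subunit related to nucleoside kinases, was the only member called in all 3 comparisons. Its levels were 4.23, 4.11 and 4.16 in Dahl S, 3.61, 3.71 and 3.64 in Dahl R, and 2.76 and 2.81 on SHR replicates 1 and 2. No strains overlapped, and the order was Dahl S, Dahl R, SHR, with the marked spot of SHR replicate 3 lower still at 2.02. Dahl S exceeded Dahl R by 0.52 ± 0.09 (SE, n = 3 and 3; 1.43-fold; limma adjusted p = 0.0452) and SHR by 1.39 ± 0.10 (n = 3 and 2; 2.62-fold; limma adjusted p = 0.000249). SHR was 1.83-fold lower than Dahl R (-0.87 ± 0.10, limma adjusted p = 0.00214). The call between the Dahl strains held under 6 of 23 other settings, with adjusted p from 0.00783 to 0.607, and was lost when any single array other than SHR replicate 3 was left out; the difference itself stayed between 0.30 and 0.55. With slide as a block the difference between the Dahl strains was 0.55 (limma adjusted p = 0.0871). It was the same within the slide that held both, and both values rest on Dahl R replicate 1 as the only Dahl R array. Against SHR, slide as a block gave 1.45 for Dahl S (limma adjusted p = 0.00441) and -0.89 for SHR against Dahl R (limma adjusted p = 0.00215). Within the slide shared by SHR and Dahl R the Ndufa10 difference was -0.89 (limma adjusted p = 0.0162). Ndufa10l1 is annotated as Ndufa10-like, and whether either probe reads both genes was not tested. It had levels of 4.71, 4.46 and 4.48 in Dahl S, 4.74, 4.59 and 4.70 in Dahl R, and 4.24 and 4.34 in SHR. Its SHR values lay below all Dahl values, but the difference from Dahl R of -0.39 ± 0.12 missed the threshold (limma adjusted p = 0.0862), as did that from Dahl S.

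**Figure D3:**
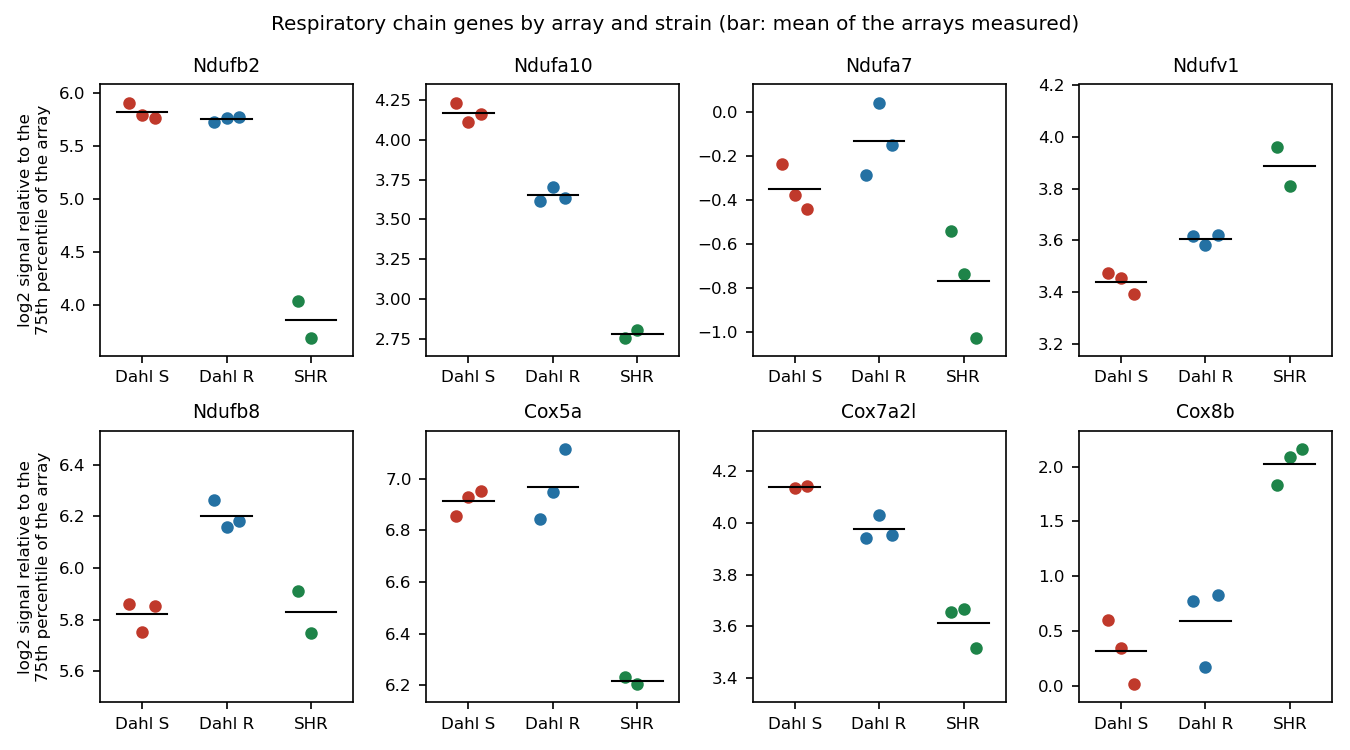
Relative log2 level (y axis, log2 signal relative to the 75th percentile of the array; each panel has its own range) of 8 respiratory chain genes on each array, by strain; bars are the means of the arrays measured. SHR replicate 3 is missing where its spot was marked as an outlier. Ndufb2, Ndufa10, Cox5a and Cox7a2l are lowest in SHR, Cox8b and Ndufv1 are highest in SHR, and Ndufb8 is highest in Dahl R.

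Ndufv1 carries the flavin site where NADH is oxidised and is 1 of 7 tested core subunits. Its levels were 3.47, 3.45 and 3.39 in Dahl S, 3.62, 3.58 and 3.62 in Dahl R, and 3.96 and 3.81 in SHR. Here SHR was the highest strain and Dahl S the lowest, with no overlap, though the marked spot of SHR replicate 3 read 3.59, inside the Dahl R range. Dahl S was lower than SHR by 1.36-fold (-0.45 ± 0.10, SE, n = 3 and 2, limma adjusted p = 0.0251). That call held under 6 of 22 other settings, and with marked spots kept it was -0.35 (limma adjusted p = 0.0815). With slide as a block the Ndufv1 difference was -0.46 (limma adjusted p = 0.129), and no slide held both Dahl S and SHR.

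Ndufa7, an accessory subunit of the matrix arm, had levels of -0.23, -0.38 and -0.44 in Dahl S, -0.29, 0.04 and -0.15 in Dahl R and -0.54, -0.73 and -1.02 in SHR, with all 9 arrays measured. Every SHR value lay below every Dahl value, and SHR replicate 3 was the lowest. SHR was 1.55-fold lower than Dahl R (-0.64 ± 0.15, SE, n = 3 and 3, limma adjusted p = 0.0310), and the difference of Dahl S from SHR, 0.42, missed the threshold (limma adjusted p = 0.102). The call against Dahl R held under 11 of 23 other settings: it was -0.58 with slide as a block (limma adjusted p = 0.0297) and within the shared slide (limma adjusted p = 0.0642). With the percentile taken over unmarked spots it was -0.28 (limma adjusted p = 0.435).

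Ndufb8, a membrane arm subunit, was highest in Dahl R, but neither difference from Dahl R passed the test in the fit of all arrays. Its levels were 5.86, 5.75 and 5.85 in Dahl S, 6.26, 6.16 and 6.18 in Dahl R, and 5.91 and 5.75 in SHR. The 3 Dahl R arrays were above all others. The difference of Dahl S from Dahl R was -0.38 (limma adjusted p = 0.154, and 0.0379 without SHR replicate 3), and that of SHR from Dahl R was -0.37 (limma adjusted p = 0.0639, and 0.0198 without SHR replicate 3). Ndufb8 has a YY1 match in its promoter window.

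Of the 31 tested complex I genes, 28, 21 and 21 had intervals within 1.5-fold in the 3 comparisons. Strains did not overlap for 8 of the 31 between the Dahl strains (25.8%, against 32.3% of all named genes). The count was 18 in Dahl S against SHR (58.1% against 39.3%) and 14 in SHR against Dahl R (45.2% against 40.9%). Fewer arrays make non-overlap easier, and named genes with no usable value on SHR replicate 3 gave 51.6% and 57.5% in the comparisons with SHR. In each of these, 8 of the 31 had an unadjusted p under 0.05, of which 3 passed after adjustment (9.68%). Of all named genes 15.8% and 13.6% passed. The 7 core subunits ranged from -0.18 to -0.02 in Dahl S against Dahl R, with 7 of 7 below 0 and 0 called. In that comparison 4708 of 10861 named genes and 11 of 24 other complex I genes were below 0. In Dahl S against SHR the core subunits ranged from -0.45 (Ndufv1) to 0.36 (Ndufs8). Ndufs8, which binds iron-sulfur clusters, was measured on a single SHR array, replicate 3, which read 1.18 against 1.53 to 1.56 in Dahl S and 1.57 to 1.81 in Dahl R. The marked spots of SHR replicates 1 and 2 read 1.97 and 1.80, above all Dahl S values, so the direction for Ndufs8 depends on whether marked spots are used. Ndufa2, a matrix arm subunit, had a difference of -0.31 in Dahl S against SHR that did not pass (limma adjusted p = 0.0959). Ndufv3 had 2 probes: the probe with the higher mean was lower in SHR replicates 1 and 2 (4.31 and 4.31, against 4.51 to 4.71 on the Dahl arrays), and the other probe was higher there (0.35 and 0.43, against -0.13 to 0.18). Neither passed with all arrays. Without SHR replicate 3 both passed in Dahl S against SHR with opposite signs, at 0.34 and -0.35 (limma adjusted p = 0.0114 and 0.0398), so the direction for Ndufv3 depends on the probe.

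Complex II, succinate dehydrogenase, joins the tricarboxylic acid cycle to the chain. None of its 4 genes passed in any comparison, and 1 had an unadjusted p under 0.05 (Sdhc in Dahl S against SHR). Of all named genes 1.65%, 15.8% and 13.6% were called, so 0 calls among 4 genes say little. All 4 intervals lay within 1.5-fold in each comparison. Sdhc, a membrane anchor, had levels of 6.03, 5.92 and 6.01 in Dahl S, 6.02, 5.86 and 5.87 in Dahl R, and 5.80 and 5.67 in SHR. SHR was the lowest strain for Sdhc, with a difference of 0.26 for Dahl S against SHR (limma adjusted p = 0.155). The catalytic flavoprotein gene Sdha had 2 probes, and their differences in Dahl S against Dahl R were close, at -0.16 and -0.14. Complex II rests on SHR replicates 1 and 2 alone, since its genes were all marked on SHR replicate 3.

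Complex III had 0 of 6 genes called in each comparison, with 1 unadjusted p under 0.05 (Uqcrc1, SHR against Dahl R). Of all named genes 1.65%, 15.8% and 13.6% were called, so 0 calls among 6 genes say little. Uqcrc1, a core protein, had levels of 4.65, 4.69 and 4.83 in Dahl S, 4.67, 4.59 and 4.62 in Dahl R, and 5.07 and 4.82 in SHR. SHR replicate 1 was the highest array, and SHR and Dahl S overlapped. The Uqcrc1 difference of SHR from Dahl R was 0.32 ± 0.12 (SE, n = 2 and 3, limma adjusted p = 0.139). Uqcrb was the least even of the complex: it read -0.30 on SHR replicate 3 and 0.76 to 1.06 on the other 8 arrays, so its difference of -0.45 in SHR against Dahl R became -0.05 without that array. Uqcrfs1, the Rieske iron-sulfur protein, differed by -0.11, -0.08 and -0.03 in the 3 comparisons.

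Complex IV, cytochrome c oxidase, held 3 of the 7 called genes, in opposite directions. These were 3 of its 16 tested genes (18.8%) in each comparison with SHR. Of all named genes 15.8% were called in Dahl S against SHR and 13.6% in SHR against Dahl R. Between the Dahl strains 0 of the 16 were called, against 1.65% of all named genes. Cox5a, a structural subunit present in all tissues, had levels of 6.86, 6.93 and 6.95 in Dahl S, 6.84, 6.95 and 7.11 in Dahl R, and 6.23 and 6.20 on SHR replicates 1 and 2. Both SHR values lay below all 6 Dahl values, which overlapped each other, and the marked spot of SHR replicate 3 read 6.16. Dahl S exceeded SHR by 0.70 ± 0.11 (SE, n = 3 and 2; 1.62-fold; limma adjusted p = 0.00913), and SHR was 1.68-fold lower than Dahl R (-0.75 ± 0.11, limma adjusted p = 0.00771). With slide as a block the Cox5a differences were 0.88 (limma adjusted p = 0.0248) and -0.81 (limma adjusted p = 0.004), and within the slide shared by SHR and Dahl R it was -0.81 (limma adjusted p = 0.0244). Both calls were lost with another background correction (limma adjusted p = 0.245 and 0.154), where the differences were 0.56 and -0.77, and with the percentile over unmarked spots (limma adjusted p = 0.0891 and 0.0769).

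Cox7a2l, also known as SCAF1, takes part in joining complexes III and IV into supercomplexes. It read 4.14 and 4.14 on Dahl S replicates 2 and 3, 3.94, 4.03 and 3.95 in Dahl R, and 3.66, 3.67 and 3.52 in SHR. The strains did not overlap among usable spots, but the spot of Dahl S replicate 1, marked as an outlier, read 3.79 and lay below the Dahl R values. The Dahl S mean was 1.44-fold above SHR (0.53 ± 0.10, SE, n = 2 and 3, limma adjusted p = 0.0151), and SHR was 1.29-fold lower than Dahl R (-0.36 ± 0.09, n = 3 and 3, limma adjusted p = 0.0425). These calls held under 12 of 22 and 7 of 23 other settings. With the percentile over unmarked spots the differences were 0.15 and -0.01 (limma adjusted p = 0.734 and 0.981), and with slide as a block they were 0.53 and -0.33 (limma adjusted p = 0.108 and 0.0593). Within the slide shared by SHR and Dahl R the Cox7a2l difference was -0.33 (limma adjusted p = 0.0804).

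Cox8b went the other way. It encodes the heart and muscle form of subunit 8, which is also abundant in brown fat, while Cox8a is the form of most other tissues. Cox8b levels were 0.61, 0.35 and 0.02 in Dahl S, 0.77, 0.18 and 0.83 in Dahl R, and 1.83, 2.09 and 2.16 in SHR, with all 9 arrays measured and above background. All 3 SHR arrays lay above all 6 Dahl arrays, which overlapped each other. Dahl S was 3.25-fold lower than SHR (-1.70 ± 0.22, SE, n = 3 and 3, limma adjusted p = 0.00222), and SHR was 2.70-fold higher than Dahl R (1.43 ± 0.22, limma adjusted p = 0.00549). Within the slide shared by SHR and Dahl R the difference was 1.46 (limma adjusted p = 0.0487). With slide as a block it was -1.91 for Dahl S against SHR (limma adjusted p = 0.0674) and 1.46 for SHR against Dahl R (limma adjusted p = 0.0215). Cox8a, the general form, differed by 0.19 in Dahl S against SHR and by -0.13 in SHR against Dahl R, and neither passed.

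Fat markers were examined beside Cox8b. Of 6 tested, 2 were higher in SHR than in each Dahl strain: Ucp1, the uncoupling protein of brown fat (log2 difference 1.38 ± 0.32 in SHR against Dahl R, limma adjusted p = 0.0468), and Lpl, a lipase of fat and muscle (1.83 ± 0.30, limma adjusted p = 0.0112). Among all named genes, 7.84% were higher in SHR than in Dahl R and 8.41% higher in SHR than in Dahl S. Fabp4, Adipoq, Cidec and Retn did not pass, and Retn read -0.15, 0.48 and -1.04 in SHR against 1.32, 0.59 and 0.98 in Dahl R, below all of them. Lep was above background on 0 arrays. The summed signal of the 7 fat marker probes, relative to the 75th percentile and with marked spots kept, was 24.0 to 38.6 in Dahl S, 33.7 to 45.8 in Dahl R and 48.3 to 67.1 in SHR. The sum of the 12 muscle marker probes was 0.58 to 1.03 over all 9 arrays. Of these probes 2, those of Ckm and Actc1, were above background on 0 arrays. Acta1 was above background on all 9 arrays, and Tnnt2, Mb and Tnni2 on 3 Dahl S, 3 Dahl R and 2 SHR arrays. Myl1 was higher in SHR than in Dahl R (1.68 ± 0.40, limma adjusted p = 0.0338), with low signal. The part of muscle tissue in the Cox8b difference was not tested. The part of fat tissue in the Cox8b difference was not tested.

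**Figure D4:**
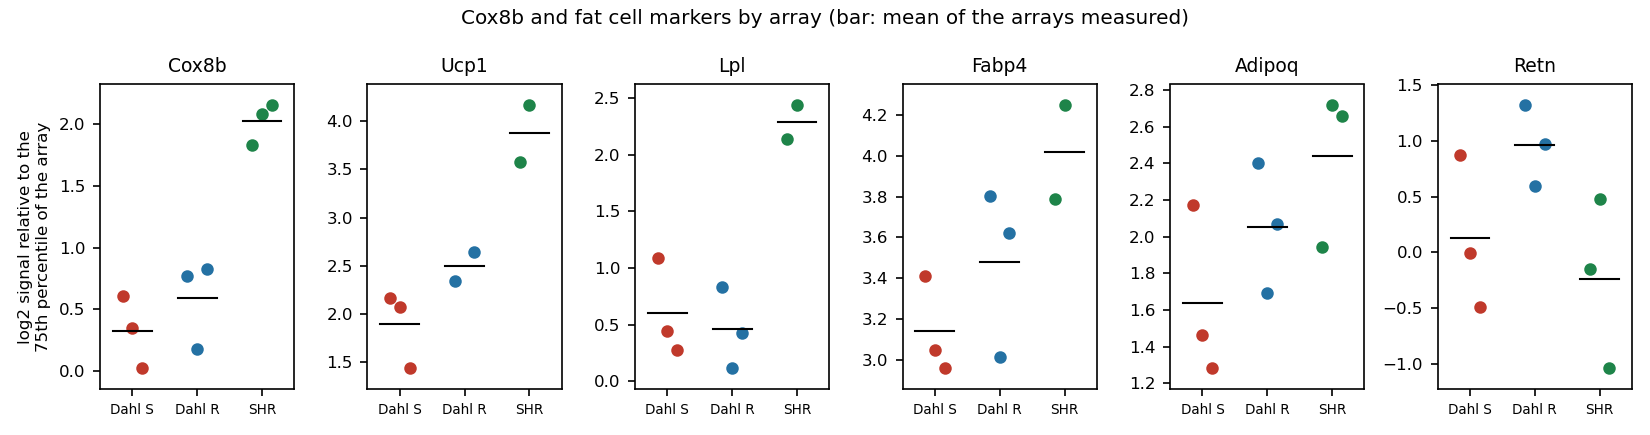
Relative log2 level (y axis; each panel has its own range) of Cox8b and 5 fat cell markers on each array, by strain; bars are the means of the arrays measured, and marked spots are left out. Cox8b, Ucp1 and Lpl are higher on every measured SHR array than on any Dahl array, while Retn has its highest mean in Dahl R.

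Of the other tissue forms of complex IV, Cox4i2 and Cox6a2 were dim and Cox6b2 was above background on all 9 arrays. Cox4i2, the lung form of subunit 4, read -7.93 on Dahl S replicate 1 and -5.05 and -5.04 on the other Dahl S arrays, -4.87 to -4.69 in Dahl R and -4.68 to -3.49 in SHR. It was well above background on 2 Dahl S, 3 Dahl R and 2 SHR arrays, and its difference of -1.90 in Dahl S against SHR did not pass (limma adjusted p = 0.125). Cox6a2, the muscle form of subunit 6a, gave intervals as wide as -2.79 to 1.28, so no difference was detectable. Cox6b2, the testis form of subunit 6b, read 2.00, 2.45 and 1.13 in SHR against 2.30 to 2.38 in Dahl S and 2.53 to 2.76 in Dahl R. SHR replicate 3 was its lowest array, and the difference from Dahl R of -0.79 (limma adjusted p = 0.128) was -0.42 without that array (limma adjusted p = 0.0707). The general forms Cox4i1, Cox5b, Cox6a1, Cox6b1, Cox6c, Cox7a2, Cox7b and Cox7c had differences between -0.15 and 0.20 in all 3 comparisons, and none passed.

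Complex V, the ATP synthase, had nearly equal levels in the 3 strains. None of its 15 genes passed in any comparison, and 0 had an unadjusted p under 0.05. Of all named genes 1.65%, 15.8% and 13.6% were called, so few of 15 genes would pass at these shares. All 15 intervals lay within 1.5-fold in each comparison, where 52.4%, 38.3% and 38.2% of those of all named genes did. Differences ran from -0.18 (Atp5pb) to 0.20 (Atp5mc2) in Dahl S against Dahl R, from -0.16 (Atp5po) to 0.10 (Atp5if1) in Dahl S against SHR, and from -0.24 (Atp5pb) to 0.15 (Atp5f1d) in SHR against Dahl R. Atp5f1b, the catalytic beta subunit, had a mean level of 8.04 ± 0.07 in Dahl S, 7.93 ± 0.09 in Dahl R and 8.01 ± 0.13 in SHR (SD, n = 3 each), with 7.83 on the lowest array and 8.11 on the highest. The 3 strains overlapped for Atp5f1b, SHR replicate 3 included. Atp5me, a membrane subunit of the synthase dimer, read 7.66, 7.64 and 7.73 in Dahl S, 7.66, 7.24 and 7.60 in Dahl R, and 7.66, 7.52 and 7.56 in SHR. Its strains overlapped too, and its differences were 0.18, 0.10 and 0.08. Atp5if1, the inhibitor that blocks the synthase from running backwards, differed by at most 0.10.

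Between the Dahl strains, 0 genes of the other mitochondrial lists below passed, where 1.65% of all named genes did. Counts against SHR are to be read beside the shares of all named genes. These were 15.8% in Dahl S against SHR and 13.6% in SHR against Dahl R, or 25.7% and 22.8% without SHR replicate 3. The lists were written with earlier results of these data known. Of 27 tested assembly factors, which build the complexes, 0 passed in the comparisons with SHR as well; without SHR replicate 3, 4 passed in Dahl S against SHR and 2 in SHR against Dahl R. Of 54 mitochondrial ribosomal proteins, 4 were higher and 1 lower in Dahl S than in SHR, and 5 were lower in SHR than in Dahl R; the largest were Mrpl57 (-1.07 ± 0.12 in SHR against Dahl R, limma adjusted p = 0.00158), Mrpl16 and Mrpl4. Of 21 import genes, Timm44 and Dnajc19 were lower in SHR than in each Dahl strain, and the other 19 did not pass.

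Vdac1, the main porin of the outer membrane, had the largest difference from Dahl R among the tested mitochondrial carriers and porins. Its levels were 3.55, 3.43 and 3.32 in Dahl S, 3.64, 3.67 and 3.64 in Dahl R and 2.15, 2.01 and 1.73 in SHR. All 3 SHR arrays lay well below all Dahl arrays (-1.68 ± 0.12 in SHR against Dahl R, SE, n = 3 and 3, 3.21-fold, limma adjusted p = 0.000185). Of the 16 carriers, cytochrome c and porin genes, 1 was higher and 3 were lower in Dahl S than in SHR, and 2 were higher and 2 lower in SHR than in Dahl R. The shares of all named genes called were 15.8% and 13.6%.

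Regulators of mitochondrial biogenesis were called in both directions in Dahl S against SHR, and only as lower in SHR in the comparison with Dahl R. These counts are to be read beside the shares of all named genes called, 15.8% and 13.6%. Of 25 tested, 4 were lower in SHR than in Dahl S (Prkaa2, Ppargc1b, Twnk and Ppard) and Ppara was higher, and 4 were lower in SHR than in Dahl R (Prkaa2, Ppargc1b, Twnk and Mterf3). Prkaa2, a catalytic subunit of the energy sensor AMPK, read 1.19, 0.63 and 0.63 in Dahl S, 0.58, 0.48 and 0.42 in Dahl R and -0.82, -1.40 and -1.07 in SHR. Every SHR value lay below every Dahl value (-1.59 ± 0.20 in SHR against Dahl R, SE, n = 3 and 3, limma adjusted p = 0.0022). Ppargc1b, a coactivator of mitochondrial genes, was lower in SHR than in Dahl R (-1.24 ± 0.33, limma adjusted p = 0.0492) with 1 of its 3 SHR spots too dim to stand above background.

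Among genes of the fuel pathways that feed the chain, calls are to be read beside the shares of all named genes, 15.8% where Dahl S is compared with SHR and 13.6% where SHR is compared with Dahl R. Of 24 genes of the tricarboxylic acid cycle and pyruvate dehydrogenase, Pdp2, which activates pyruvate dehydrogenase, was higher and Pdk1, which inhibits it, was lower in Dahl S than in SHR (0.83 ± 0.21 and -0.40 ± 0.10, limma adjusted p = 0.035 and 0.0333), and 0 passed in SHR against Dahl R. Of 17 genes of coenzyme Q synthesis and other entry points, Pdss2 and Etfdh were lower in Dahl S than in SHR, and against Dahl R Pdss2 was higher and Coq2 lower in SHR. Of 15 glycolysis genes, Pfkp and Tpi1 were higher in SHR than in each Dahl strain (0.79 ± 0.14 and 0.54 ± 0.12 in SHR against Dahl R, limma adjusted p = 0.00976 and 0.0349).

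Several markers of the mitochondria-rich proximal tubule were lower in SHR. Of 14 tested, 4 were lower in SHR than in Dahl S (largest Slc4a4), 6 were lower in SHR than in Dahl R and 0 differed between the Dahl strains past the threshold. Among all named genes, 7.35% were lower in SHR than in Dahl S and 5.8% lower in SHR than in Dahl R. The summed signal of the 14 markers, with marked spots kept, was 1439 to 1548 in Dahl S, 1496 to 1662 in Dahl R and 1328 to 1377 in SHR. None of the 14 probes was below background on all arrays. The sum for 7 thick ascending limb markers was 508 to 524 in Dahl S, 512 to 521 in Dahl R and 511 to 635 in SHR. The part of these segments in the respiratory chain differences was not tested.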

How the data were processed

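For each of the 9 arrays the authors deposited scanner output, and per the file headers its processed signal is a background-subtracted intensity made with Agilent Feature Extraction 10.5.1.1, not normalized between arrays. The authors also deposited a table of values that were read as log2 because its columns correlated with the scanner log2 signals at r of 0.974 (SHR replicate 3) and 0.999 to 1.00 (the other 8 arrays); column medians ran from 9.63 to 9.64, its centring is not given in the sources used here, and it served as an alternative. Signals were taken as log2 and centred on the 75th percentile of the array's non-control spots, outlier-marked spots were set to missing, and spots of a probe were averaged. Tests covered 16592 probes: those well above background in a share of 0.5 or more of their spots on 3 or more arrays, with a usable spot in every strain. For genes with several probes, the probe with the highest mean stood for the gene. Strains were compared with limma 3.58.1 in R 4.3.3 (lmFit, contrasts.fit, eBayes) over all 9 arrays, at a Benjamini-Hochberg adjusted p under 0.05; the script was tested on simulated data. Named genes are the members past the threshold in any comparison, the highest and lowest member of each complex per comparison, and up to 4 called genes a list. Members and lists were chosen with earlier results of these data known. Other genes and values beyond that rule (such as Cox8a, Ndufv3 and Atp5f1b) were named after their values were seen. Through RefSeq identifiers 14294 probes had a current symbol. Probe sequences were not analysed here, so whether a probe reads a near-identical copy or a base that differs between strains was not tested. Alternatives were background correction, normalization, outlier marks, the filter, slide, replicate number, the strains fitted and each array left out. Of the tested members, 1 is counted but not reported here by name. Precision is limited by 3 arrays a strain.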

Additional observations from a re-analysis of the deposited data

How the results depend on the processing

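The 13 member calls kept their direction under all alternatives run. Those of Ndufb2 held under 22 of 22 and 23 of 23, those of Ndufa10 against SHR under 22 of 22 and 22 of 23, and those of Cox8b under 21 of 22 and 22 of 23. Members called in Dahl S against Dahl R, 1 in the report, were 0 with normexp background correction, with the percentile over unmarked spots, with the authors' values, with marked spots kept, with no filter, with slide as a fixed or random block and within the first slide, and 2 with only the 2 strains compared. Dahl S against SHR gave 3 members in place of 6 with normexp, with the percentile over unmarked spots and with slide as a block, and SHR against Dahl R gave 2 in place of 6 with the first and second of these and 11 without both SHR replicate 3 and Dahl S replicate 1, a setting chosen after seeing the data. Leaving out 1 array gave 0 to 2, 4 to 8 and 4 to 10 members in the 3 comparisons, the highest each time without SHR replicate 3.

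Probes called among all tested were 233, 2605 and 2165. In the report's order of comparisons they were 43, 550 and 416 with normexp, 40, 626 and 503 with the percentile over unmarked spots, 93, 1491 and 1188 with no filter, 746, 1076 and 1138 with only the 2 strains compared, and 703, 4350 and 4346 without both arrays. Slide as a block gave 866 and as a random block 1262 in Dahl S against SHR, and the first slide alone gave 32 in Dahl S against Dahl R. Leaving out 1 array gave 74 to 761, 1280 to 4345 and 960 to 3772. The members' median moved to -0.16 (Dahl S against Dahl R) and -0.10 (Dahl S against SHR) with normexp and to -0.0916 (Dahl S against SHR) with the percentile over unmarked spots. That percentile moved the median of all named genes by -0.31 in Dahl S against SHR and by 0.31 in SHR against Dahl R. The cause of these shifts was not tested.

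The replicate numbers showed no sign of pairing. Same-numbered arrays had deviations that correlated at -0.16 to 0.06, and arrays with different numbers at -0.17 to 0.19. With 3 arrays a strain this cannot exclude pairing. With the replicate block 0, 4 and 4 members passed, and 75 probes in Dahl S against Dahl R and 1424 in SHR against Dahl R. Low signal limits Cox4i2, Cox6a2 and Ndufb11, which were not well above background on every array.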

Other observations

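Intercalated cells, which secrete acid or base in the collecting duct, had markers higher in SHR. Of 7 tested markers, 6 were higher in SHR than in Dahl R and 3 than in Dahl S, and 1, Slc4a1, was higher in Dahl S than in Dahl R (limma, adjusted p under 0.05). The shares of all named genes called in these directions were 7.84%, 8.41% and 0.865%. Rhcg, an ammonia channel, and Slc26a4, the chloride-bicarbonate exchanger pendrin, were higher in SHR than in Dahl R by 1.04 ± 0.15 and 1.03 ± 0.18 on the log2 scale (limma adjusted p = 0.00627 and 0.0125). The summed marker signal was 49.9 to 55.2 in Dahl S, 36.9 to 47.6 in Dahl R and 63.9 to 80.5 in SHR, so the SHR arrays lay above all others. Of 6 principal cell markers, 3 were higher in SHR than in each Dahl strain, with Scnn1b, a subunit of the epithelial sodium channel, at 1.49 ± 0.20 in SHR against Dahl R (limma adjusted p = 0.00303).

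Other marker lists split. Their counts are to be read beside the shares of all named genes called. These were 1.65% in Dahl S against Dahl R, 15.8% in Dahl S against SHR and 13.6% in SHR against Dahl R. Of 7 thick ascending limb markers, Cldn16 was lower and Kcnj1 higher in SHR than in each Dahl strain, and 0 of 3 distal convoluted tubule markers passed. Of 6 podocyte markers, 1 was higher and 1 lower in Dahl S than in SHR, and 1 was lower in SHR than in Dahl R. Of 6 endothelial markers, 2 were lower in Dahl S than in SHR, and 1 was higher in SHR than in Dahl R. Of 6 red cell markers, 3 were lower in SHR than in Dahl S and 1 was lower in SHR than in Dahl R. Of 5 stroma markers, Dcn was higher in Dahl S than in each other strain. Of 7 leukocyte markers, Csf1r was higher in Dahl S than in SHR, and Itgam was higher in SHR than in Dahl R. Of 7 muscle markers, Acta1 was higher in Dahl S than in each other strain, and Myl1 was higher in SHR than in Dahl R.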
